A study of Mus musculus with 70 samples.

Results

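Forebrain chromatin interactions that were called at E12.5 and at E13.5 and at no later stage are described here, and are called early-only interactions. They were selected on H3K4me3 PLAC-seq calls of fetal forebrain (FB) alone. Each is a pair of 10 kb bins present in the pooled calls of both FB E12.5 and FB E13.5 and in none of the 4 later FB stages, which run from E14.5 to P0. The rule found 1686 such bin pairs, against 25140 bin pairs called at both early stages (6.71%), 174073 distinct bin pairs in the 6 FB call sets and 248620 in all 12 call sets of the series. The other 23454 bin pairs, called at both early stages and in at least 1 later FB stage, are called kept interactions and serve as the comparison. H3K4me3 PLAC-seq joins DNA ends that lie close together in the nucleus and then enriches fragments carrying H3K4me3, a mark of active and poised promoters. Beside FB, the tissues collected at E12.5 were liver (LV), limb (LM) and craniofacial prominence (CF), and, of the neural tissues, neural tube (NT), hindbrain (HB) and midbrain (MB). FB was also collected daily to E16.5 and at P0. All came from C57BL/6N mice, and no genotype or treatment is given in the labels. Every tissue and stage had 2 biological replicates, which the authors pooled and downsampled before calling. CTCF ChIP-seq peaks of FB at the same 6 stages were deposited too, from 11 libraries, of which the E14.5 pair is titled as technical replicates and P0 has 1. In bulk tissue, fewer cells with a contact and less contact per cell cannot be told apart.

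Long-range contacts bring promoters near distal regulatory DNA, and many are held by cohesin stopped at CTCF, a zinc finger protein that binds DNA in a directed way, so that loops tend to join motifs that point towards each other. Between the early and the later stages sampled here, the forebrain moves from expanding neural progenitors to the production and maturation of neurons. Promoter contacts of progenitor and patterning genes can be remodelled over this time, while others persist from tissue to tissue.

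The word lost fits these bin pairs only in part. Of the 1686 early-only interactions, 1316 (78.1%) had a later FB call whose ends lay within 1 bin of theirs, and 370 had none. A nearby call was present at E14.5 for 952, at E15.5 for 938, at E16.5 for 873 and at P0 for 851, and 502 had a nearby call at all 4 later stages. In the later replicate libraries called singly, 477 of the early-only bin pairs were called at least once. Both ends of 1330 still took part in other FB interactions after E13.5, 1 end of 353, and no end of 3. A bin pair without a call has no value in the deposited data, so a pair below the threshold and a pair that was not tested cannot be told apart.

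Nor was the number of early-only interactions unusual among FB patterns. Of the 15 ways to be called at exactly 2 of the 6 FB stages, the counts ran from 1267 to 3912 bin pairs, with a median of 1753, and the pattern E12.5 with E13.5 ranked 10th. The pairs E12.5 with P0 alone gave 1735, E14.5 with E15.5 alone 1806 and E16.5 with P0 alone 3905. The pooled FB call sets grew from 51264 calls at E12.5 to 79677 at P0, and single FB libraries had 16075 to 63868 calls.

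The forebrain label was checked through promoter interactions, since no expression values were analysed. The TSS bins of Emx1, a homeobox factor of the dorsal telencephalon, had 18 interactions in FB E12.5, against 2 to 5 in MB, HB, NT and CF and 0 in LM and LV. Those of Six3, a homeobox factor of the anterior neural plate and eye, had 110 in FB E12.5, against 89 in CF, 83 in MB, 63 in HB, 24 in NT, 13 in LM and 5 in LV. Prrx1, a mesenchyme factor, had 0 in FB at E12.5 and E13.5 and 50 in LM. Cdh5, Csf1r, Hbb-bt, Alb and Afp, which mark endothelium, microglia, blood and liver, had no called interaction at any FB stage, and Kdr had 2, at E14.5.

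The sequences shown are the CTCF motif sites at both ends of the strongest early-only interactions, chosen since CTCF at the ends can be followed there after the calls had gone. Sites were found with a 19 bp matrix estimated from the FB E12.5 peaks, whose consensus is TGGCCACCAGGGGGCGCTA, searched on both strands. It matched 89.2% of FB E12.5 peaks and 15.4% of windows of the same lengths placed 2 kb after the peaks. Each sequence is mm10, read 5′ to 3′ along the motif, with the matched motif in capitals and 5 flanking bases on each side. A match is a description of the sequence.
Far end of the Tbx3 interaction at 900 kb, plus strand, chr5:118781745-118781773, intergenic: acatgTGGCCAGCAGGTGTCGCCAcagac
Far end of the Tbx3 interaction at 910 kb, plus strand, chr5:118774044-118774072, intergenic: cagacTGTCCACCAGATGACAGCCttcac
Far end of the Tbx3 interaction at 820 kb, minus strand, chr5:118864909-118864937, intergenic: cagagAGGCCACTAGAGAGCATTGgattc
Far end of the Tbx3 interaction at 920 kb, minus strand, chr5:118763543-118763571, UTR of Med13l: cgagtCTACCACTAGGTGGCCTCCccgct
The Tbx3 promoter end shared by these 4, minus strand, chr5:119686575-119686603, intron of the lincRNA Tbx3os2: gggtgCGACCAGAAAGGGGCGCAGaggtg
Upstream end of the Pcca interaction, plus strand, chr14:122223891-122223919, intron of Clybl: tggagTGGTCACTAGATGGCACTCacaca
Pcca end of that interaction, minus strand, chr14:122876367-122876395, intron of Pcca and Ggact: agtgcATACCAGTAGATGGCAGCAgattg
Upstream end of an interaction of 900 kb, minus strand, chr13:69687166-69687194, intron of Gm35618: cactcCCTGCAGAAGATGGCAGCTgcagc
Downstream end of the same, minus strand, chr13:70587174-70587202, intron of Ice1: aattgTGGCCACCAGAGGGTGCTGcagac

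Of these 6 interactions, the Tbx3 pairs at 900 and 910 kb and the Pcca pair joined a plus-strand motif to a minus-strand motif downstream, the convergent arrangement, and the other 3 joined motifs of the same direction. The Tbx3 promoter site carried a CTCF peak at every FB stage, with a fold enrichment over input of 7.09 and 8.14 at the early stages and 14.7, 6.93, 5.52 and 6.61 at the later stages in order. Its partner at 900 kb had 42.0 and 48.4 at the early stages and 27.7 to 45.6 later. Both Pcca ends were bound throughout as well, the Clybl end at 12.7 to 31.2 and the Pcca end at 18.8 to 55.7. The site at 820 kb was weak, with 5.91 at E12.5, 4.08 at E14.5 and 3.02 at P0 and no peak over it at the other 3 stages. CTCF thus stood at the Tbx3 promoter, at its partner at 900 kb and at both Pcca ends when the interactions were called and when they were not.

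Early-only interactions were of modest strength. The normalized contact frequency (observed over expected count) had a median of 3.16 at E12.5 (quartiles 2.60 and 4.04) and 3.20 at E13.5, against 3.68 and 3.73 for kept interactions. The median count of read pairs was 21 at E12.5 and 20 at E13.5, against 27 and 28. These values entered the choice of members and are given without a test. The caller required an FDR below 0.01 and a ratio of at least 2. Just inside the threshold lay 553 early-only interactions with an FDR above 0.001 at E12.5 (32.8%, against 16.0% of kept) and 129 with a ratio below 2.2. Just outside the rule lay 2585 bin pairs called in exactly 1 later FB stage, whose single later call had a median ratio of 3.21, a median count of 21, and an FDR above 0.001 in 765 of them.

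**Figure D1:**
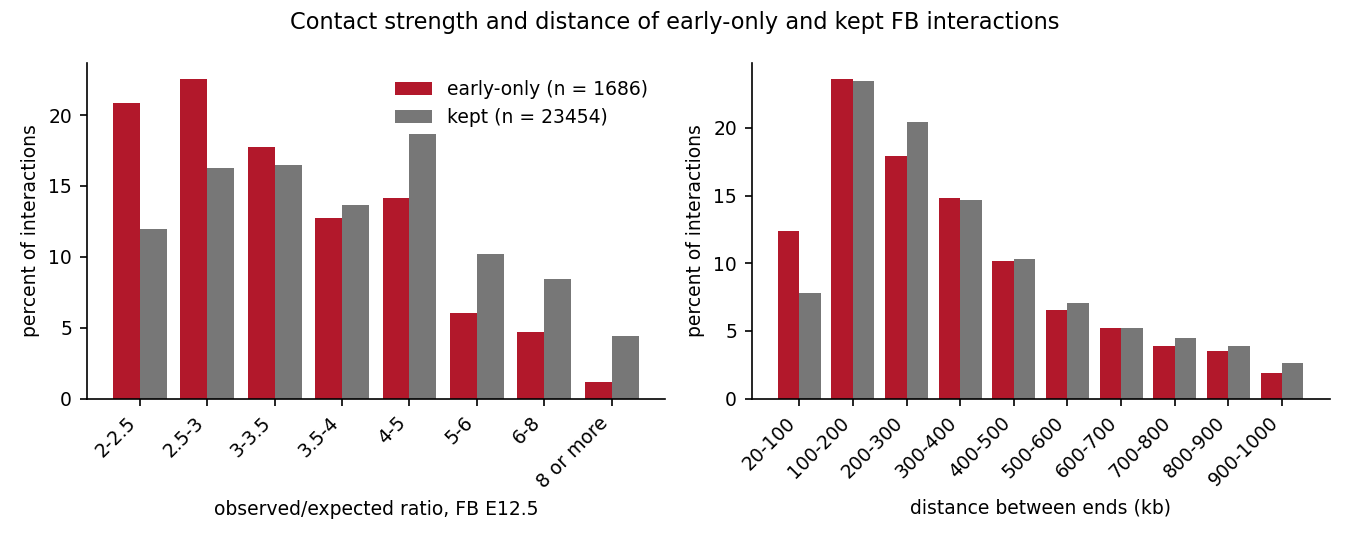
Percent of early-only (n = 1686) and kept (n = 23454) interactions in classes of the observed/expected ratio at FB E12.5 (left, classes of unequal width) and of the distance between ends in kb (right). Early-only interactions were more often in the classes below 3 and at 20 to 100 kb (12.4% against 7.77%), and otherwise had a similar spread of distances.

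The replicate libraries, called singly at lower depth, held few of the early-only interactions. At E12.5, 316 were called in replicate 1 and 256 in replicate 2, and at E13.5, 435 and 348. No early replicate held 848 of them (50.3%, against 11.1% of kept interactions), 94 were called in 3 of the 4, and 41 in all 4. The 8 later libraries held between 52 and 150 each. A single replicate in place of the pooled calls gave 450 (replicate 2) and 469 (replicate 1) early-only interactions, of which 86 and 106 were also early-only in the pooled calls and 36 in all 3.

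The median distance between ends was 270 kb (quartiles 150 and 450 kb), against 280 kb for kept interactions. A protein-coding TSS lay at both ends of 219 early-only interactions (13.0%, 95% Wilson interval 11.5 to 14.7), at 1 end of 845 (50.1%, 47.7 to 52.5) and at neither end of 622 (36.9%, 34.6 to 39.2). For kept interactions the shares were 14.8% (14.4 to 15.3), 61.9% (61.3 to 62.6) and 23.2% (22.7 to 23.8). Early-only interactions thus had a lower share of pairs with a TSS at 1 end and a higher share without an annotated protein-coding TSS. The intervals cover counting error only, bin pairs share bins, and the difference was not tested.

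In the E12.5 tissues that the rule did not use, early-only interactions recurred less often than kept ones. Of the early-only interactions, 31.8% were called in MB, 31.8% in HB, 31.5% in NT, 23.3% in LM, 26.6% in CF and 8.07% in LV. Of the kept interactions, 72.3% were called in MB, 75.4% in HB, 75.5% in NT, 56.4% in LM, 64.6% in CF and 25.1% in LV. The share was lower in 6 of 6 tissues, by 17.0 percentage points in LV to 44.0 in NT, and the mean difference was -36.0 points (2-sided exact sign-flip test, p = 0.03125, the smallest that 6 tissues allow, and 0.0469 after Benjamini-Hochberg adjustment over 6 tests). With LV left out the difference was -39.8 points in 5 of 5 tissues, where the smallest possible exact p is 0.0625. With kept interactions weighted to the early-only distribution of distance and E12.5 contact frequency it was -33.0 points (exact p = 0.03125). Kept interactions were selected for a further FB call and early-only ones for none, so the test cannot separate recurrence in tissues from this selection. The 6 tissues score the same bin pairs, and the exact p records only that all 6 differences share a sign.

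Recurrence in other tissues rose with the number of later FB stages that held the call. In HB it was 31.8% for no later stage, 43.1% for 1, 57.8% for 2, 70.3% for 3 and 89.4% for 4, and the order was the same in every tissue. Contact frequency at E12.5 rose along the same series, from a median of 3.16 through 3.22, 3.35 and 3.47 to 4.05. Against bin pairs with exactly 1 later stage, a comparison chosen after the data were seen, the mean difference was -10.1 points (exact sign-flip test, p = 0.03125).

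**Figure D2:**
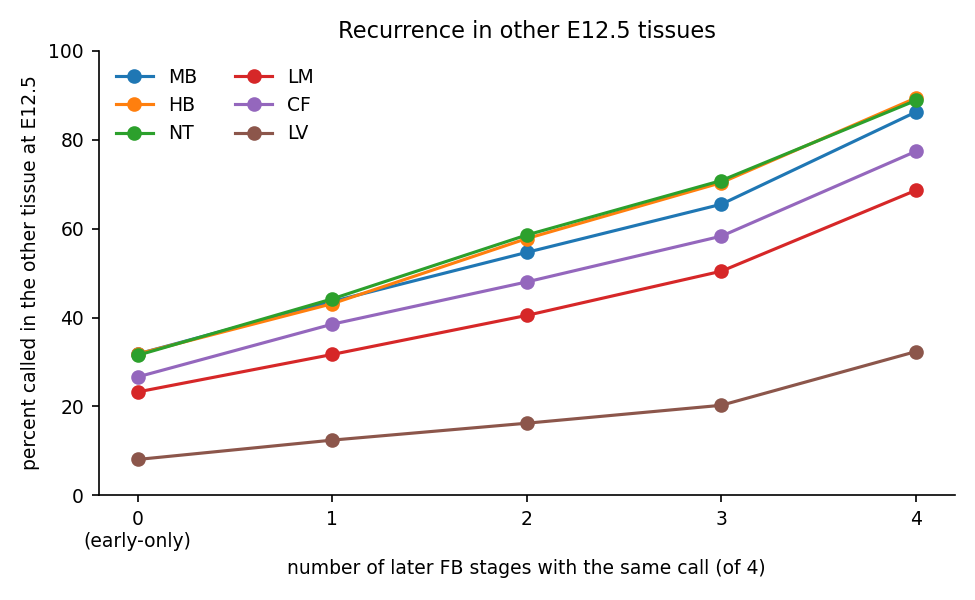
Percent of FB interactions called at both early stages that were also called in another tissue at E12.5 (y axis), by the number of later FB stages with the same call (x axis, 0 being the early-only interactions), with 1 line per tissue. All 6 lines rise from left to right, from 31.8% to 86.2% in MB and from 8.07% to 32.3% in LV.

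No other E12.5 tissue held 491 early-only interactions (29.1%, Wilson 27.0 to 31.3), against 4.30% of kept ones. A further 504 were called in MB, HB or NT and in no non-neural tissue, 199 in LM, CF or LV alone, and 492 in both kinds. Kept interactions were not split in this way, and they too were called more often in the neural tissues, so these counts show no neural leaning. All 6 tissues held 17 early-only interactions (1.01%), against 14.7% of kept ones. The ratio of shares, early-only to kept, was 0.440 in MB, 0.422 in HB, 0.417 in NT, 0.412 in LM, 0.413 in CF and 0.321 in LV. The mean log2 ratio was 0.17 higher in the 3 neural tissues than in the 3 others, which did not pass the test (exact permutation test, p = 0.1, adjusted p = 0.12, where 0.1 is the smallest that 20 arrangements allow). LV carried most of it: without LV, left out after the data were seen, the difference was 0.047 (exact p = 0.2). It was 0.024 (exact p = 1.0) for early-only interactions without a later call within 1 bin and 0.097 (exact p = 0.5) for those in no later replicate. When a call within 1 bin was accepted, 67.9% of early-only interactions were found in MB, 66.4% in HB, 69.3% in NT, 53.3% in LM, 62.0% in CF and 24.7% in LV, against 91.5% of kept interactions in MB and 43.8% in LV. Bin pairs called at E14.5 and E15.5 alone were found in 20.8% of cases in MB and 25.7% in NT, and those called at E16.5 and P0 alone in 16.7% and 25.9%. That difference from early-only interactions was not tested.

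Counted per interaction, CTCF was less often present at the ends of early-only interactions. With each distinct end bin counted once, the sets lay much closer. The E12.5 list then gave 39.7% bound against 41.0% of kept end bins, and the P0 list 44.6% against 47.2%. The differences below therefore also reflect how often bound bins recur among the interactions of each set. A bin was counted as bound if it held the midpoint of an FB CTCF peak with a motif. With the E12.5 list, 16.7% of early-only interactions were bound at both ends against 26.7% of kept ones, and with the P0 list 20.7% against 33.5%. The share was lower with 6 of 6 lists, by 10.0 to 13.6 points (mean difference -12.2, 2-sided exact sign-flip test, p = 0.03125, adjusted p = 0.0469). Neither end was bound in 33.1% against 20.1% with the E12.5 list and in 28.4% against 15.1% with the P0 list, a mean difference of 13.1 points (exact p = 0.03125, adjusted p = 0.0469). Against bin pairs with exactly 1 later stage both differences were smaller, -3.15 points for both ends and 6.02 for neither end (exact sign-flip tests, p = 0.03125). The 6 lists score the same bin pairs at largely the same sites and are not independent. An exact p of 0.03125 over 6 lists, here and for motif direction, records only that all 6 differences share a sign.

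Motif direction was compared where each end held motifs of a single direction, which left 191 early-only and 4428 kept interactions with the E12.5 list. Of these 53.4% and 59.8% were convergent. The convergent share fell short of that of kept interactions with 6 of 6 lists, by 6.44 points at E12.5 and 12.3 at P0 (mean -8.97, exact sign-flip test, p = 0.03125, adjusted p = 0.0469). Divergent pairs made up 8.38% of early-only and 4.52% of kept interactions with the E12.5 list. The convergent difference depended on the comparison: with the calls of replicate 1 alone it was -1.57 points (exact p = 0.344), and against bin pairs with exactly 1 later stage it was 4.35 points in the opposite direction (exact p = 0.03125).

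CTCF was still found at many of the ends after the calls had ended. Of the 2881 distinct end bins of early-only interactions, 39.7% held CTCF at E12.5 and 41.0% at E13.5, and with the 4 later lists 46.3%, 44.8%, 40.6% and 44.6%. For end bins of kept interactions the values were 41.0% and 43.0%, then 48.4%, 46.5%, 43.7% and 47.2%. The gap between both sets changed by -0.74 points from the early to the later lists (exact permutation test over 15 arrangements, p = 0.2, where the smallest possible is 0.0667). A change of the gap in CTCF occupancy was therefore not detected with these 6 lists.

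**Figure D3:**
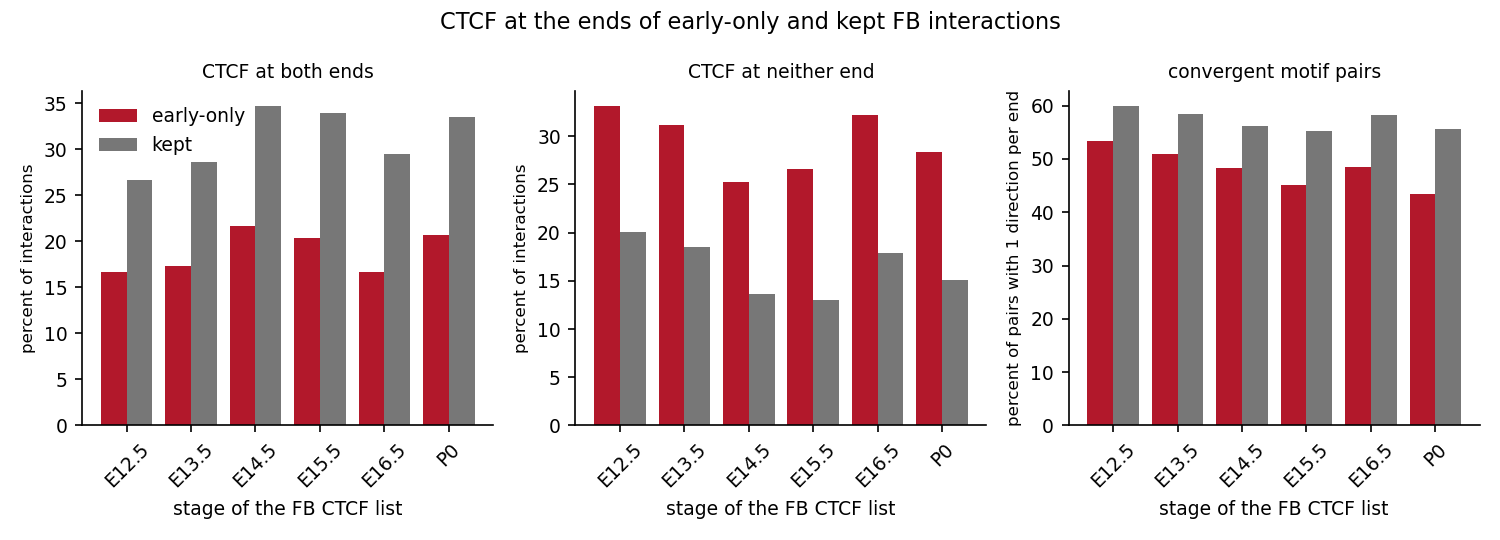
Percent of early-only and kept interactions with CTCF at both ends (left), at neither end (middle) and with convergent motifs among pairs with a single motif direction per end (right), for the FB CTCF list of each stage on the x axis. The early-only bars are lower at left and right and higher in the middle at all 6 stages, and there is 1 value per set and list, so no error bars are drawn.

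Early-only interactions were spread thinly, with a few concentrations. Of their 2881 end bins, 2556 carried a single one and 13 carried at least 5. Only 345 of the end bins had no FB interaction at all after E13.5, and none of those carried more than 3. The 4 bins with the most, named after their values were seen, held 44 early-only interactions, and 27 of the 88 that were called in at least 3 early replicates and in no later replicate.

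The bin with the most, 14, was chr7:70320001-70330000, which has no annotated TSS and lies 30 kb from the nearest protein-coding TSS, that of Nr2f2 (COUP-TFII), a nuclear receptor of ventral and caudal forebrain. It had 25 interactions at each early stage, and 2, 1, 2 and 0 at the later stages in order. Its replicate counts were 15 and 12 at E12.5, 11 and 11 at E13.5, and 0 to 2 in each of the 8 later libraries. These libraries were pooled for the calls that chose the members. Replicate counts, here and at the bins below, are thus not independent of the choice. At E12.5 it had 19 interactions in MB, 20 in HB, 8 in LM, 2 in NT, 1 in CF and 0 in LV. The next bin downstream fell over the same stages by smaller steps, with 39, 37, 32, 27, 22 and 17 interactions. All 14 had a later call within 1 bin, and no CTCF peak with a motif lay in the shared bin at any stage.

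Tbx3, a T-box transcription factor, had the most early-only interactions of any gene, 14, of which 13 ended in chr5:119680001-119690000, the second of its 2 TSS bins. That bin had 20 interactions at E12.5 and 23 at E13.5, then 2, 3, 1 and 2, with 11 to 18 in each early replicate and 0 to 2 in each later one. The other TSS bin, directly before it, had 30, 31, 34, 30, 26 and 29. Of the 13 partner bins, the bin before was joined to 12, 11, 12, 10, 11 and 10 by stage, while the second bin was joined to all 13 at both early stages and to 0 at each later one, as the rule requires. At the partner 900 kb upstream, the second bin had contact frequencies of 12.4 at E12.5 and 21.6 at E13.5 and no later call, and the bin before had 10.5, 9.62, 20.0, 13.1, 14.6 and 21.4 from E12.5 to P0. Most far contacts of the Tbx3 promoter region were thus still called at the later stages, from the adjacent bin. In the other E12.5 tissues the second bin had 22 interactions in MB, 26 in HB, 30 in NT, 19 in LM, 47 in CF and 12 in LV. H3K4me3 peaks, which decide which bins are tested, were not analysed here.

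**Figure D4:**
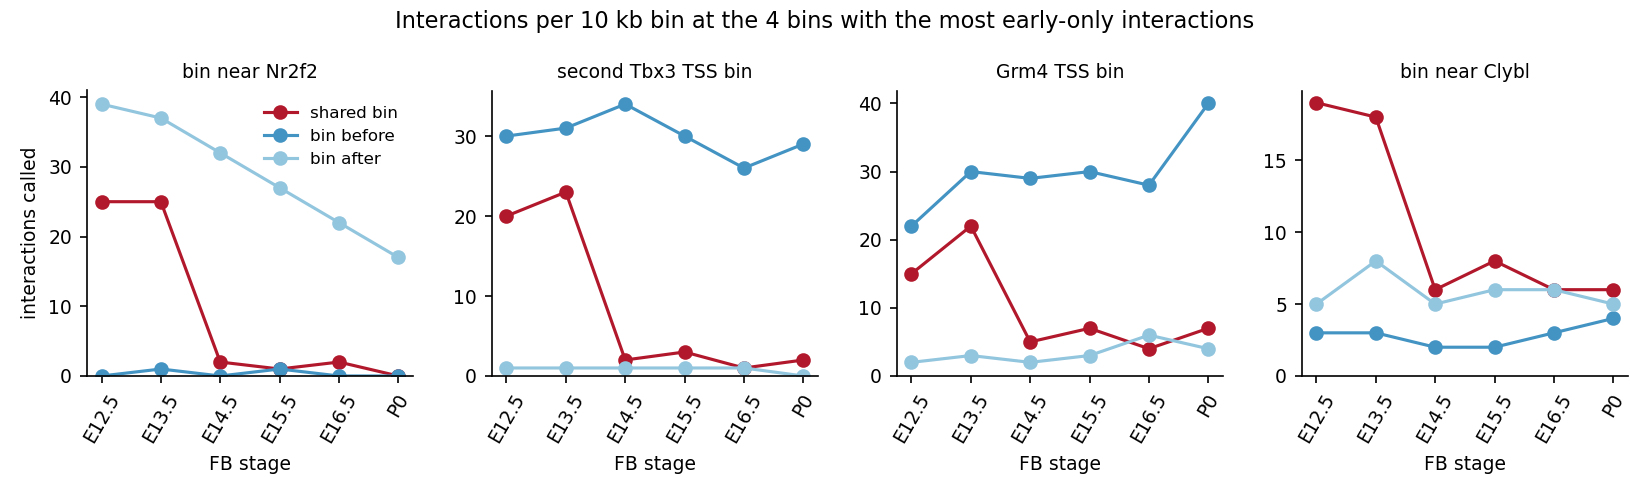
Number of interactions called per FB stage at the 4 bins with the most early-only interactions (shared bin) and at the bins directly before and after each. The shared bins near Nr2f2 and at Tbx3 drop from 20 to 25 interactions at the early stages to at most 3 later, while the Tbx3 bin before stays between 26 and 34.

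**Figure D5:**
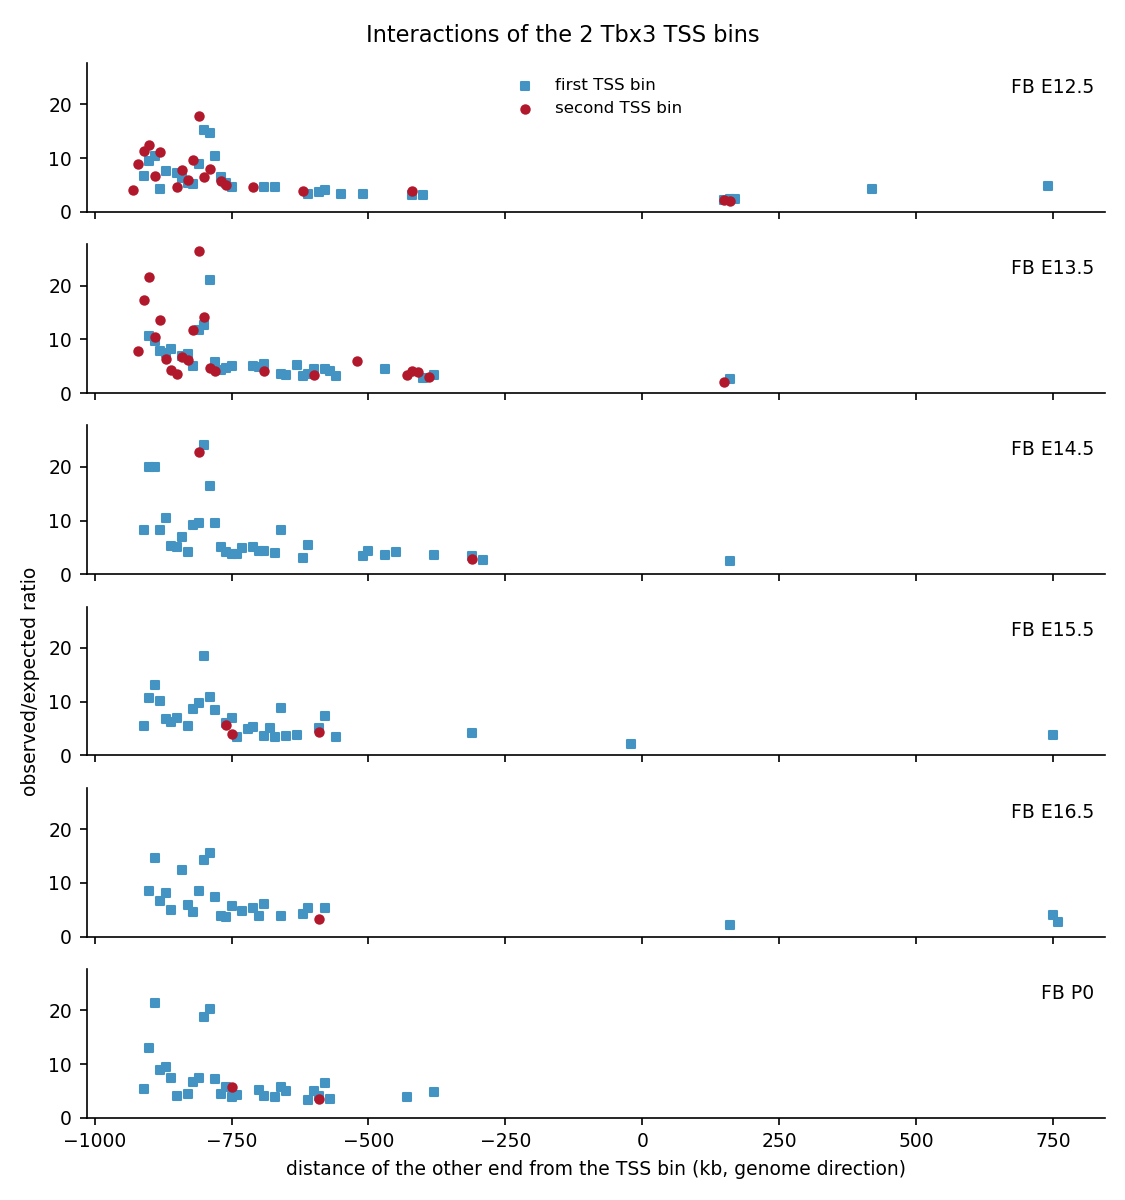
Observed/expected ratio (y axis) of every called interaction of the 2 Tbx3 TSS bins against the distance of its other end from that bin in kb (x axis, negative towards lower coordinates), with 1 panel per FB stage. Circles (second bin) crowd at 790 to 920 kb at E12.5 and E13.5 and number 1 to 3 at the later stages, while squares (first bin) lie at these distances at all 6 stages.

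Grm4, which encodes a metabotropic glutamate receptor, had 9 early-only interactions, all ending in chr17:27520001-27530000 with partners 270 to 480 kb away. That bin went from 15 and 22 interactions at E12.5 and E13.5 to 5, 7, 4 and 7 later, while the bin before, also a Grm4 TSS bin, had 22, 30, 29, 30, 28 and 40. All 9 were called in HB at E12.5, 2 in NT and none in the other 4 tissues. All 9 had a nearby call at each of the 4 later stages.

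The bin chr14:122220001-122230000, 33 kb from the nearest TSS of Clybl, a mitochondrial enzyme gene, stood apart in that few of its 8 early-only interactions had a later neighbour (3 of 8). It had 19 interactions at E12.5 and 18 at E13.5, then 6, 8, 6 and 6, while its neighbours held 2 to 8 throughout. Its 650 kb contact with the Pcca TSS bin had 35 read pairs and a contact frequency of 10.3 at E12.5 and 26 read pairs and 7.72 at E13.5. That contact was called in all 4 early replicates and no later one, and in MB and HB at E12.5 but in no other tissue. Another such bin, also named after its values were seen, was chr12:80060001-80070000, 48 kb from Zfp36l1, an RNA-binding protein gene, with 21 and 12 interactions at the early stages, then 0, 1, 0 and 0. At E12.5 it had 19 in CF, 2 in MB, 1 in HB and 0 in NT, LM and LV, and of its 5 early-only interactions 1 had a later call nearby.

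Few early-only interactions were both repeated in early replicates and without any later call nearby. Of the 88 early-only interactions called in at least 3 early replicates and in no later replicate, 9 had no later pooled call within 1 bin. They included 3 contacts of the Clybl bin, 1 contact of Hoxb4 at 140 kb (contact frequency 2.51 at E12.5 and 2.16 at E13.5), 1 contact 350 kb long beside Tbx3 (4.35 and 10.0), and 1 contact of 180 kb in the Nr2f2 region (4.18 and 2.85). A protein-coding TSS lay at an end of the Hoxb4 contact and of the Clybl bin contacts at 650 and 660 kb (Pcca). The others had none in either end bin.

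Of the 5714 protein-coding genes with an interaction called at both early stages, 1114 had at least 1 early-only interaction (19.5%), most of them (900) exactly 1. A gene with many interactions has more chances to hold one, so the share of early interactions that were early-only is given too. The 6.71% of all bin pairs is not a like baseline, since it includes pairs without a protein-coding TSS. Pairs with such a TSS were 1064 early-only, beside 14526 kept with 1 TSS end and 3479 with 2. Their early-only share is below 6.71%, since more early-only than kept pairs lacked a TSS (36.9% against 23.2%). Only 12 of the 1114 genes had no called FB interaction after E13.5, and among these Preb and Trip12 had 2 early-only interactions each.

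The 20 genes with the most early-only interactions, among which some share TSS bins, all had more kept than early-only interactions. Totals are numbers of called interactions at FB E12.5, E13.5 and so on to P0. Bcl11a, a zinc finger factor of developing neurons, had 7 early-only and 55 kept interactions, and its totals were 97, 80, 83, 75, 89 and 37, with the low value at P0 alone. Pax6, the paired-box factor of cortical radial glia, had 7 and 36, with partners 180 to 500 kb away, and its total went from 82 and 66 at the early stages to 66, 66, 35 and 51. Nr2f2 had 7 and 31, and 68, 56, 50, 39, 31 and 31 in total. Tle3, a Groucho-type corepressor, had 7 and 61. Its bin chr9:61400001-61410000 carried 5 of them and had 20, 15, 0, 11, 10 and 5 interactions by stage.

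Pou3f2 (Brn2), a POU factor of neural progenitors and upper-layer neurons, had 5 early-only and 23 kept interactions, and totals of 48, 40, 25, 24, 27 and 14. At E12.5 its TSS bin had 47 interactions in MB, 40 in HB and 54 in NT, but 3 in LM, 5 in CF and 0 in LV. Emx2, a homeobox factor of the dorsal telencephalon, had 5 early-only against 102 kept interactions, with totals of 132, 124, 114, 100, 103 and 83. Tcf7l2, a Wnt effector, had 5 and 34, with totals of 69, 53, 45, 42, 28 and 33. Plpp3, a lipid phosphate phosphatase gene, had 5 and 29. Atp5d and Cbarp, which share their TSS bins, had 5 and 14.

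Of the genes with 4, Hmga2, a chromatin protein of young progenitors, had the lowest total at P0, with 36, 26, 22, 12, 14 and 2 interactions from E12.5 to P0. It had 4 early-only and 16 kept interactions, and 44 and 43 interactions in LM and CF at E12.5. Zeb2, a zinc finger repressor of neural and neural crest cells, had 4 and 8, with totals of 36, 31, 29, 34, 40 and 15, so that P0 alone was low. Nr2f1, the paralog of Nr2f2, had 4 and 15, with totals of 31, 28, 24, 25, 20 and 19. Tgfb2, a growth factor, had 4 and 26, of which 3 had no later call within 1 bin, and all 4 were called in LM. Hoxb9 had 4 and 8, Hoxd4 and Gm28230 shared 4, and A830031A19Rik shared its 4 with Bcl11a.

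The single strongest early-only interactions, ranked by the smaller of both contact frequencies, repeated the same few bins. Of the top 20, 8 ended at Tbx3 and 2 in the bin near Nr2f2, 13 had a protein-coding TSS at an end, and 19 had a later call within 1 bin. Beside the Tbx3 and Pcca contacts they included a 930 kb contact of Zbtb20, a zinc finger factor of the hippocampus, with 6.60 at E12.5 and 7.58 at E13.5 on 12 and 14 read pairs. A 660 kb contact of Trim13 had 6.85 and 6.65, and an 840 kb contact of Ccdc85a had 6.76 and 7.31 on 10 and 11 read pairs.

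Gene lists drawn up from general knowledge are given by their counts, and the lists were not tested. Forebrain patterning factors had an early-only interaction at 26 of the 40 genes with early interactions (65.0%, against 19.5% of all genes). These genes are rich in interactions, and their 58 early-only interactions stood beside 758 kept ones (7.11%). The share of all bin pairs, with or without a TSS, was 6.71%, and that of pairs with a TSS is lower. Beside Emx2, Nr2f1, Nr2f2 and Tcf7l2, 3 each were at Six3, Sp8, Barhl2, Dlx2 and Otx2 and 2 each at genes that included Otx1, Dlx1, Irx3 and Meis1. Otx2, a homeobox gene of anterior neural tissue, had 3 early-only against 2 kept interactions, with totals of 18, 9, 9, 12, 0 and 5. Irx3 had 80 interactions in MB at E12.5, and 38, 33, 34, 31, 23 and 15 in FB from E12.5 to P0.

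Proneural and neurogenic factors had an early-only interaction at 15 of 32 genes, and 5.54% of their early interactions. Beside Bcl11a, Pou3f2 and Zeb2, Ebf2 had 3, and Ebf3 and Pou3f3 had 2 each. Neural progenitor and radial glia genes had them at 7 of 20 genes (5.48% of interactions). They were Pax6 with 7, the Notch target Hes1 with 3, Id4 and Cdh2 with 2, and Sox2, Sox9 and Nr2e1 with 1. Cell cycle genes had them at 2 of 16, with 3 at Ccnd1 (cyclin D1), whose total went from 22 and 20 to 12, 14, 7 and 12, and 1 at Cdkn1c, and 2.60% of their interactions were early-only.

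Developmental timing genes had early-only interactions at 3 of 6 genes and 6 early-only beside 37 kept interactions (14.0%), 4 of them at Hmga2 and 1 each at Arid3b and Dicer1. Arid3b was called with 2 and 1 interactions at the early stages and 0 at all later ones. Posterior neural regional factors had them at 11 of 21 genes and in 10.1% of interactions, with 3 each at Hoxc4 and Hoxd3 and 2 each at En1 and Hoxb3. Hoxd3 had 67 and 60 interactions at the early stages and 54, 36, 28 and 47 later, against 118 in NT at E12.5. Hoxb3, which marks hindbrain and neural tube, had 16, 14, 11, 15, 3 and 7 in FB and 49 in HB. The part of cells from outside the forebrain in these calls was not tested.

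Among signalling genes, FGF and BMP pathway genes had early-only interactions at 8 of 17 genes (6.19% of interactions), with 2 each at Fgf15, Fgfr1, Nog and Bmp4. Both of Bmp4, a BMP ligand, spanned 390 and 400 kb, had no later call within 1 bin, and stood beside 0 kept interactions. Wnt pathway genes had them at 5 of 21 (5.20%), with 3 each at the receptors Fzd1 and Fzd8 and the factor Lef1, 2 at the ligand Wnt5a and 1 at Ctnnb1. All 3 at Fzd1 lacked a later call nearby. Notch pathway genes had 2 in all, at the ligand Dll1 and at Lfng (2.63%), and Hedgehog pathway genes had 2 in all (1.87%).

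Neuronal maturation and synapse genes had the lowest share among lists with more than 100 early interactions, 2 early-only beside 286 kept interactions (0.694%), at Gad2 and Cacna1a. Mesenchyme and cartilage genes had 2 (1.87%), at Pdgfra and Sox9, blood and microglia genes 3, all at Runx1, beside 23 kept ones (11.5%), and housekeeping genes 1, at Eef1a1 (3.33%). Of the 13 endothelium and vessel wall genes, 1 had an early interaction and none had an early-only one. Whether these shares differ between lists was not tested.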

How the data were processed

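H3K4me3 PLAC-seq calls of 24 libraries and FB CTCF ChIP-seq peaks were analysed as deposited. The authors aligned reads to mm10, and for pairs of 10 kb bins MAPS compared the deposited count of read pairs with a regression. The signal expected under that model is the authors' fitted expected count. The p-value column is an FDR computed by the authors, who kept autosomal pairs at an FDR below 0.01 and a ratio of at least 2, from 20 kb to 1000 kb. The authors called each replicate, and again both replicates pooled and downsampled. For CTCF, the deposited ratio is MACS2's fold enrichment against input. Replicated peaks of pooled libraries overlapped peaks of both. At P0, with 1 library, the list used had 62782 peaks, and the other, of pseudo-replicated peaks, had 32625. Of 2 lists per stage, the one whose number of peaks matches the study's was used.

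Bin pairs were matched by chromosome and both starts with Python 3.11.15 (pandas 2.3.3, NumPy 2.4.6, SciPy 1.17.1, numba 0.67.0, pysam 0.24.0). TSSs are those of 20807 autosomal protein-coding genes in GENCODE M21 on GRCm38, the assembly called mm10, in 35186 bins. The CTCF matrix was estimated from FB E12.5 peaks, and a site needed a probability of at most 0.0001 per position. Tests were exact, over 6 tissues or 6 CTCF lists, each of which enters once, so biological spread within a tissue is not part of them. Statistics were tested on simulated data. Named genes are the 20 with the most members, the 20 strongest members' genes, and members of 15 lists with at least 2 (short lists, 1). Members and lists were chosen with earlier results of these data known. The median FB call rested on 21 or 22 read pairs. H3K4me3 peaks, input libraries, CTCF peaks of other tissues, cluster labels and sex chromosomes were not used here. Some genes that the rule selects are not reported here.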

Additional observations from a re-analysis of the deposited data

Results flagged for a closer look

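Among the 6 other E12.5 tissues, LV stood apart from the rest. It held 8.07% of early-only interactions, against 23.3% to 31.8% in the other 5, and its ratio of shares, early-only to kept, was 0.3214, against 0.412 to 0.440. LV also had the fewest calls of any tissue (21945). Among groups of this size chance sets a value apart in about 1 of 20.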

How the results depend on the processing

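No paired analysis was possible because the replicate numbers enter no test as units: the sign-flip tests take the difference within each tissue or CTCF list, from pooled calls. The share called in other tissues and CTCF at both ends and at neither end kept their direction under every alternative run for them, with exact p = 0.03125 except where 5 tissues or lists allow no less than 0.0625: without LV (-39.8 points), and without P0 CTCF (-12.1 points for both ends, 13.0 for neither end, -8.32 for convergent motifs). The convergent difference was -14.4 to -1.57 points without replicate 1 or 2, its exact p being 0.344 without replicate 2, and reversed to 4.35 points against bin pairs with 1 later stage, which was chosen after seeing the data. The neural minus non-neural log2 ratio and the change in bound ends kept their sign and passed in none of their alternatives (lowest exact p = 0.1 and 0.133). The number of early-only interactions rested on the setting: 449 at an FDR of at most 0.0001, 370 without a later call within 1 bin and 450 to 469 without a replicate. The median distance was 190 kb at the stricter FDR and 210 to 220 kb without a replicate. Pairs with a TSS at both ends made up 15.8% at the stricter FDR and 15.1% without nearby later calls, pairs without a TSS 32.5% at the stricter FDR and 33.6% to 35.4% without a replicate, and pairs with a TSS at 1 end 52.2% to 53.3% without a replicate. With TSSs of all annotated genes the shares were 21.5% at both ends, 56.0% at 1 and 22.5% at none. The causes were not tested. Calls rest on about 20 read pairs, so absence of a call is a weak statement.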
